A study of Mus musculus with 31 samples.

Results

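Whole pleural tumours were set beside cancer cells sorted from pleural tumours, to see which transcripts of the tumour mass came with the sorted cells and which did not. The 6 whole tumour and 5 sorted libraries, 11 of the 31 in the series, were compared over the 12141 genes listed in both deposited tables, after each library was rescaled to the same total over those genes, in TPM, a level per transcript length. All mice were untreated female BALB/c mice of 12 weeks that carried the mesothelioma line AB1-mCherry, and all tumours were taken on day 10 after inoculation. The line is a single murine mesothelioma line that expresses the red fluorescent protein mCherry, re-grown from its brightest cells before it was implanted, so all groups share 1 cancer cell source. The pleural whole tumours (n = 6) came from mice 1 to 5 and mouse 7, and the sorted libraries (n = 5) came from mice 1 to 5 and held cells without CD45, the pan-leukocyte surface protein, and with mCherry. The other groups used below were whole tumours and sorted cells of the subcutaneous and the peritoneal site, with 5 libraries each. Whole tumours were steeped in an RNA preservative, disrupted mechanically and extracted with one kit, whereas sorted cells went into another preservative after sorting and were extracted with a kit for small samples, per the labels' protocols. The labels do not say how tumours were taken apart for sorting. The kind of sample, its handling, its kit and its table therefore coincide and cannot be told apart, so the direct comparison carries no test and only large differences are read from it.

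Pleural mesothelioma grows from the lining of the chest cavity, and its mass holds macrophages, lymphocytes, vessels and fibroblasts besides cancer cells. A whole tumour library mixes the RNA of all of them, and a sort for a marker of the cancer cells removes most of the others. In such a mixture fewer cells of a type and less RNA per cell cannot be told apart. Immediate early genes encode short-lived transcription factors and feedback inhibitors that cells transcribe within minutes of a stimulus. Heat shock genes encode chaperones, which refold proteins under stress, and chemokines are secreted proteins that draw leukocytes into a tissue.

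A gene was counted as enriched when the means of log2(TPM + 1) differed by at least 2 and the values of the 2 kinds of library did not overlap. By this rule 472 genes were higher in whole tumours, which is 3.89% of the 12141, and 68 were higher in sorted cells, which is 0.56%. Every count within a gene list below is to be set beside these shares. Only genes with a mean above 1 TPM over the 15 sorted libraries are listed for sorted cells. Of 42315 genes listed for whole tumours alone, 2738 had a pleural mean of at least 1 TPM and 351 of at least 10 TPM. These were not counted, and at least 143 of the 42315 are listed for sorted cells under older symbols. The shares hold only for genes listed for both kinds of sample. The median difference over all genes was 0.33 towards the whole tumours, and it was -0.01 with median-of-ratios scaling and -0.08 with quantile normalization, so small differences carry no direction. Predicted or pseudogene names made up 56 of the 472 and 18 of the 68. At the edge of the rule, Sp100 (2.00) and Insl3 (2.00) lay just inside and Ogt (2.00) and Tlr3 (1.99) just outside on the tumour side, and Gm6685 (-2.0) and Sgk1 (-2.10) just inside and Gm43652 (-2.0) and Gm37144 (-1.94) just outside on the cell side. Of the 68 genes higher in sorted cells, 41 had an entry among the RefSeq promoters used below.

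**Figure D1:**
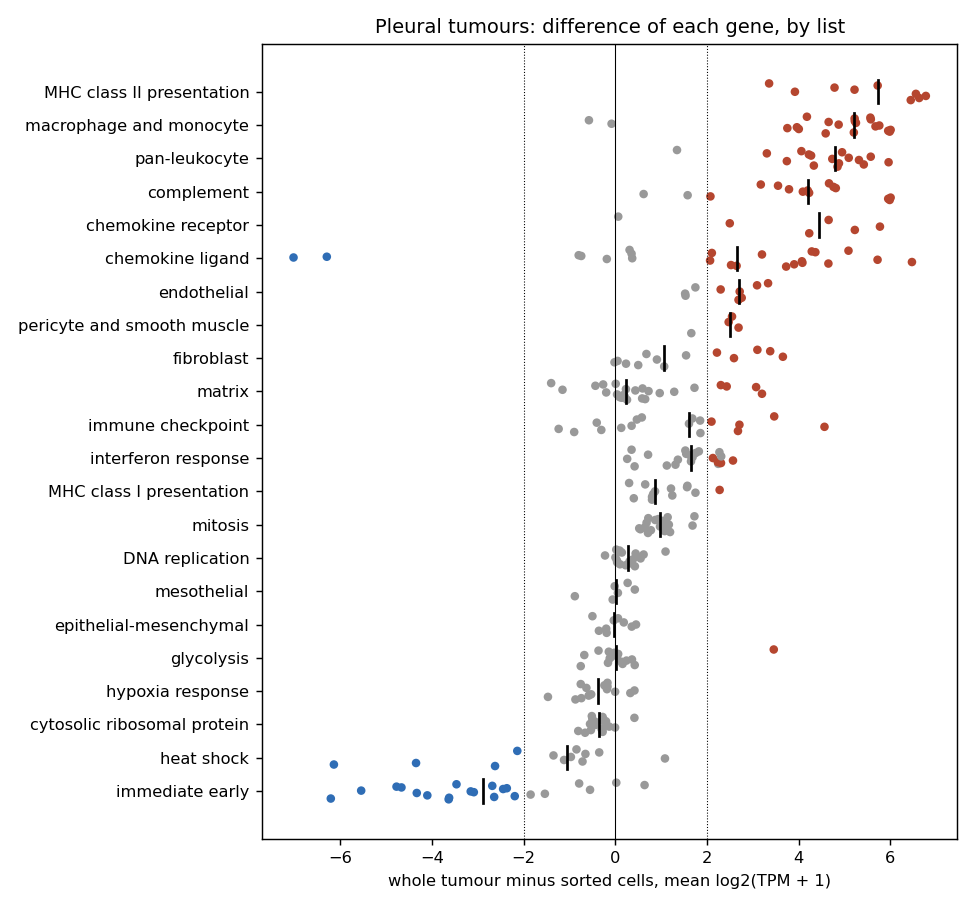
Difference of each gene between pleural whole tumours (n = 6) and pleural sorted cells (n = 5) on the log2(TPM + 1) scale, by gene list. Points are genes, red where enriched in whole tumours, blue where enriched in sorted cells and grey otherwise; black bars are list medians and dotted lines mark a difference of 2 in either direction. The MHC class II median lies at 5.72 and the immediate early median at -2.88.

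Early response, heat shock and CXC chemokine genes were among those with the largest differences towards the sorted cells, so stretches of promoters of these genes are shown first. Each line gives the 150 bases before the transcription start, 5′ to 3′ on the gene's own strand, from RefSeq on GRCm38.p6, with a match to a known regulatory motif in capitals. Cxcl1, Cxcl2 and Nfkbia hold the kappaB motif GGGANNTTCC, the type of site bound by NF-kB factors. Hspa1b holds GAANNTTC, a core of the heat shock element. Dusp1 holds TGACGTCA, the cyclic AMP response element, and Zfp36 holds a CArG box, the site of serum response factor.
Cxcl1: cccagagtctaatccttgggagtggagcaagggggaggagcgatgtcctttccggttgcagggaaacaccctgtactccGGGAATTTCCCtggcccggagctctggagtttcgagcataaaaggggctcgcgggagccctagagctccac
Cxcl2: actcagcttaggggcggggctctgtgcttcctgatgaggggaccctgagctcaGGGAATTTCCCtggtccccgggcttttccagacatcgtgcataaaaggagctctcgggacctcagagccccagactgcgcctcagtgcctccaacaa
Nfkbia: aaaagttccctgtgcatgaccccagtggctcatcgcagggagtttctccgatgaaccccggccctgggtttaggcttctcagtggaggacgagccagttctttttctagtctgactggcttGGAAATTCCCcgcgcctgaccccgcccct
Hspa1b: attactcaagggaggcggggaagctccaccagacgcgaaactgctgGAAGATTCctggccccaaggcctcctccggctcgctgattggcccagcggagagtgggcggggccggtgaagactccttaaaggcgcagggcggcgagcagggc
Dusp1: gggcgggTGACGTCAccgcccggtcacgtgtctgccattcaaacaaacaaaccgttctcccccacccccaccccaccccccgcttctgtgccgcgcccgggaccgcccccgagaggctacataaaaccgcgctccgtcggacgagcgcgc
Zfp36: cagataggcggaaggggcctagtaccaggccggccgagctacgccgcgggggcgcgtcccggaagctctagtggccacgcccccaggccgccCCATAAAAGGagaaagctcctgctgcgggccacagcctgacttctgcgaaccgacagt
Cxcl1 lies at chr5:90891095-90891244 (+ strand), Cxcl2 at chr5:90903749-90903898 (+ strand), Nfkbia at chr12:55492648-55492797 (- strand), Hspa1b at chr17:34959239-34959388 (- strand), Dusp1 at chr17:26508473-26508622 (- strand) and Zfp36 at chr7:28379229-28379378 (- strand), in GRCm38.p6 coordinates of the bases printed. In Cxcl1 and Cxcl2 the run of 11 capitals is a pair of overlapping matches, 1 on each strand. In Nfkbia the capitals match the motif on the opposite strand to the one printed.

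Both strands of the 250 bases before the start were searched in all 32851 promoters of the table. The percentages are of promoter entries. The counts out of 41 are of genes, each counted if any of its entries matched, so the measures are not quite alike. The kappaB motif was found in 1.21% of all promoters and in 3 of the 41 enriched genes that had a promoter, namely Cxcl1, Cxcl2 and Nfkbia. The heat shock motif was found in 6.69% of all promoters and in 4 of the 41, Hspa1a, Hspa1b, Jun and Sgk1. The cyclic AMP motif was found in 1.55% of all promoters and in 5 of the 41, Areg, Btg2, Dusp1, Dusp8 and Ppp1r15a. The CArG box was found in 1.47% of all promoters and in 2 of the 41, Dusp5 and Zfp36. These letters describe the promoters and say nothing of which factor was bound in these cells.

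Immediate early genes were far lower in whole tumours than in sorted cells. Of the 22 listed, 16 were higher in sorted cells, against 0.56% of all genes, none was higher in whole tumours, and the list median was -2.88. Fosb, a partner of Jun in the AP-1 transcription factor, measured 2.92, 5.26 and 6.95 TPM (lowest, median and highest) in whole tumours. In sorted libraries 1 to 5 Fosb measured 425, 424, 467, 478 and 439 TPM, a difference of -6.20 (SE 0.16) on the log2(TPM + 1) scale. All sorted libraries lay within a narrow band, far above every whole tumour. Nr4a1, an orphan nuclear receptor induced by many stimuli, was at 9.72, 12.6 and 14.6 TPM in whole tumours and 699, 651, 569, 456 and 773 TPM in sorted cells (-5.54, SE 0.16). Zfp36 encodes tristetraprolin, which destabilizes cytokine messages, and measured 18.8, 27.0 and 32.4 against 659, 667, 1059, 595 and 766 TPM (-4.77, SE 0.18). Dusp1, a phosphatase that shuts off MAP kinases, measured 15.1, 21.9 and 28.8 against 542, 630.1, 610.1, 489 and 690.3 TPM (-4.66, SE 0.16). None of these ranges overlapped.

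The same was seen at higher levels for the classic members. Fos measured 40.6, 47.8 and 54.6 TPM in whole tumours and 604, 574, 554, 410.4 and 902 TPM in sorted cells (-3.63, SE 0.19). Jun, its AP-1 partner, measured 59.5, 104 and 124 against 1066, 1295, 1504, 1019 and 1278 TPM (-3.62, SE 0.18). The zinc finger factor Egr1 measured 48.8, 95.4 and 123 against 1443, 1483, 1738, 1531 and 1676 TPM (-4.10, SE 0.20), which made it one of the more abundant transcripts of the sorted cells. Atf3, a stress-induced repressor, measured 4.40, 6.99 and 9.55 against 198, 145, 117, 222 and 122 TPM (-4.33, SE 0.25). Ccn1, a matrix-bound signalling protein, Ier2, Ier3, Junb, Jund, Btg2, Klf4 and Klf6 were the other members that passed, with differences from -3.46 to -2.19. The 6 that did not pass were Egr2 (-1.85), Egr3 (-1.53), Ccn2 (-0.79), Klf2 (-0.55), Myc (0.02) and Socs3 (0.64). Socs3, a feedback inhibitor of cytokine signalling, is often induced with these genes but was 46.2, 55.1 and 64.7 TPM in whole tumours and 36.2, 40.4, 29.1, 31.1 and 35.8 TPM in sorted cells, slightly lower in the sorted cells without overlap. The growth regulator Myc, likewise an early gene in cultured cells, ranged from 55.3 to 203 TPM in sorted cells around the whole tumour median of 100.2 TPM.

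Summed over the list, immediate early transcripts made up 1018 to 1217 TPM in whole tumours and 9039 to 11811 TPM in sorted cells. The lowest and highest sorted libraries differed by far less than either differed from any whole tumour. Leaving out any of the 11 libraries left 16 or 17 members enriched.

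**Figure D2:**
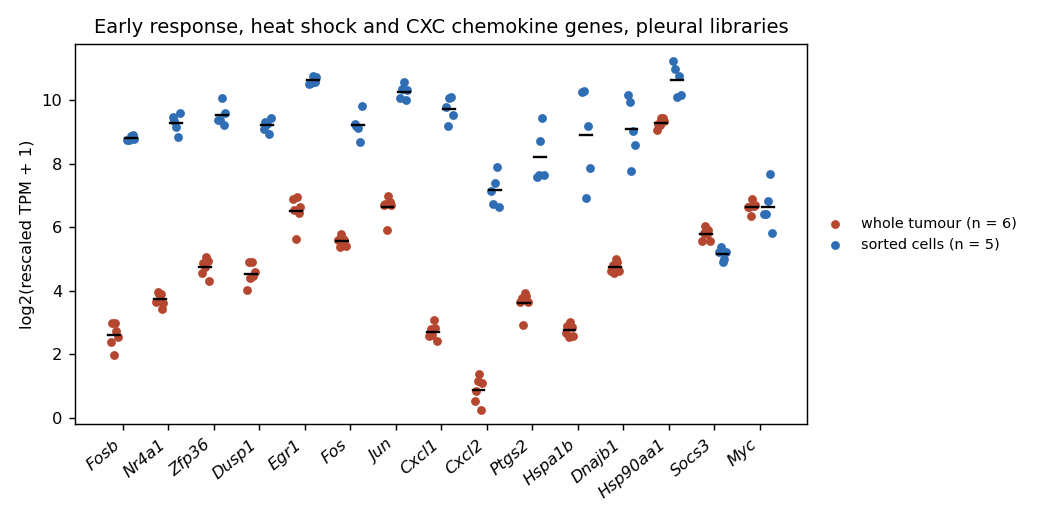
Level of 15 early response, heat shock and chemokine genes on the log2(rescaled TPM + 1) scale, each point a library, red for whole tumours (n = 6), blue for sorted cells (n = 5), black bars for means. Fosb to Dnajb1 do not overlap between the kinds of library, while Myc does.

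Heat shock genes were less uniform. Of 12 listed, 4 were higher in sorted cells, against 0.56% of all genes. They were Hspa1b and Hspa1a, which encode the inducible HSP70, the HSP40 co-chaperone Dnajb1, and Bag3, an HSP70 partner. Hspa1b measured 4.88, 5.86 and 7.06 TPM in whole tumours and 1217, 1254, 121, 575 and 229.6 TPM in sorted libraries 1 to 5 (-6.13, SE 0.67). Libraries 1 and 2 were the highest and library 3 the lowest, and the ratio of highest to lowest was wider than for any immediate early gene listed. In Dnajb1 the same 2 libraries were the highest and the same one the lowest, with 1145, 971, 218, 524 and 380.1 TPM against 22.6, 25.3 and 30.8 TPM in whole tumours (-4.34, SE 0.44). Hspa1a, near-identical in sequence to Hspa1b, was low in both (0.297, 0.645 and 1.44 against 15.9, 16.9, 1.72, 18 and 5.71 TPM), and how reads shared by the pair were assigned is uncertain. Constitutive chaperones moved less: Hspa8 differed by -0.97, Hsp90aa1 by -1.35, and the mitochondrial chaperonin Hspd1 by -0.35. Leaving out 1 library in turn left 3 or 4 members past the rule.

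Several genes of secreted signals and their regulators were also higher in sorted cells. The neutrophil attractant Cxcl1 measured 4.37, 5.55 and 7.38 TPM in whole tumours and 876, 577, 1079, 1083 and 745 TPM in sorted cells (-7.01, SE 0.20), which is 155-fold by the ratio of mean TPM. Its neighbour Cxcl2, with the same promoter match, measured 0.176, 0.964 and 1.58 against 140.1, 105, 167, 239 and 98.9 TPM (-6.29, SE 0.29). Whole tumours thus held less of both messages than the sorted cells did, by a wide margin in every library. Cxcl5 (-0.80) and Cxcl3 (-0.74), of the same receptor family, did not pass. Ptgs2, the inducible prostaglandin synthase, measured 6.59, 12.1 and 14.4 against 189.7, 200.04, 414, 696 and 197 TPM (-4.58, SE 0.40), with the highest value in sorted library 4. Tnfaip3, a ubiquitin-editing inhibitor of NF-kB, measured 12.1, 13.6 and 16.2 against 153, 109, 128, 164 and 86.0 TPM (-3.09, SE 0.18). The epidermal growth factor receptor ligand Areg (-2.53) and the cytokine Il11 (-2.28) passed as well. Of 30 growth factor and cytokine ligands, 2 were higher in sorted cells and 2 in whole tumours, against 0.56% and 3.89% of all genes. Counts this small carry no reading for the list. Lif (-1.85), Ereg (-1.79), Il6 (-1.39) and Hbegf (-1.09) leaned to the sorted side without passing.

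The largest difference of all was that of Rps12l1, a gene named for its likeness to the ribosomal protein gene Rps12. It measured 1648, 1002, 1378, 2195 and 1936 TPM in sorted cells and at most 0.00013 TPM in whole tumours. Rps12 itself averaged 3158 TPM in whole tumours and 3902 TPM in sorted cells, and the pseudogene Rps12-ps3 averaged 1144 and 793 TPM. The tables also use different names for some genes, and reads shared by such copies can be assigned differently, so this value is uncertain. Cytosolic ribosomal proteins as a list lay at a median of -0.36, with 0 of 20 past the rule.

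On the host side, MHC class II genes showed the largest differences. These genes encode the molecules by which macrophages, dendritic cells and B cells present peptides to helper T cells. All 9 that both tables list were higher in whole tumours, against 3.89% of all genes, with a median of 5.72. H2-Eb1, a class II beta chain, measured 560.4, 938 and 1494 TPM in whole tumours and 5.46, 3.74, 5.40, 20.7 and 6.97 TPM in sorted cells (6.77, SE 0.45). Cd74, the invariant chain that escorts class II molecules, measured 1524, 2304 and 3697 against 19.4, 9.72, 21.6, 65.9 and 22.2 TPM (6.56, SE 0.48) and was the most abundant of the group. H2-Ab1 and H2-Aa differed by 6.63 (SE 0.46) and 6.44 (SE 0.44). In all 4 the highest sorted value was that of library 4, still far below the lowest whole tumour. The protease Ctss, which trims Cd74, differed by 5.72, and the peptide exchange subunits H2-DMa, H2-DMb1 and H2-DMb2 by 3.92, 5.22 and 4.78. Ifi30, a lysosomal thiol reductase, was the least different at 3.35, and sorted cells held 33.6 to 53.9 TPM of it. Ciita, the master regulator of the group, is listed only in the whole tumour table, at 5.51 to 16.5 TPM.

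Macrophage genes were next. Of 20 compared, 18 were higher in whole tumours, with a median of 5.21. Csf1r, the receptor that macrophages need to survive, measured 123, 152 and 208 TPM in whole tumours and 1.18, 3.16, 2.58, 5.67 and 5.19 TPM in sorted cells (5.20, SE 0.31). Its ligand Csf1 did not differ by the rule and overlapped, at 122, 166 and 178 against 166, 122, 155, 184 and 112 TPM (0.12, SE 0.16). The other ligand, Il34, lay at 0.15. The ligands were thus at tumour level in the sorted cells and the receptor far below it. The complement component C1qa, made by tissue macrophages, measured 542, 797 and 1207 against 4.80, 7.97, 11.3, 23.8 and 16.6 TPM (5.98, SE 0.40), and C1qb and C1qc differed by 5.95 (SE 0.47) and 6.0 (SE 0.43). Lyz2 (lysozyme) differed by 5.76, Apoe by 5.67, Aif1 by 5.57, Adgre1 (F4/80) by 4.59 and Arg1 (arginase) by 4.18. The monocyte receptor Ccr2 measured 42.7, 51.9 and 59.2 against 0.268, 0.203, 0.330, 0.671 and 0.574 TPM (5.22, SE 0.12). The exceptions were the phagocytic receptor Mertk (-0.08), at 5.41 to 9.86 against 7.37 to 11.4 TPM, and Plac8 (-0.57), which was abundant in both at 325 to 372 against 467 to 529 TPM. These 2 genes were therefore read from the sorted cells at the level of the tumour, and a sum over the list in sorted cells is mostly Plac8.

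Leukocyte genes in general were far lower in the sorted cells, which were gated without CD45. The part of the sort in this cannot be told apart from that of handling and kit. Ptprc, which encodes CD45 itself, measured 38.9, 49.8 and 71.8 TPM in whole tumours and 0.299, 0.612, 0.451, 1.48 and 2.10 TPM in sorted cells (4.85, SE 0.28). Of 16 pan-leukocyte genes 15 passed and Arhgdib (1.35) did not. Cd52, Rac2, Laptm5 and Lcp1 differed by 5.96, 5.57, 5.42 and 5.31. The median pan-leukocyte gene in sorted libraries 1 to 5 stood at 1.09, 1.77, 1.51, 3.59 and 3.33% of its whole tumour mean. For macrophage genes these shares were 0.908, 1.51, 1.52, 3.51 and 3.14%, and for MHC class II genes 0.860, 0.809, 0.913, 3.10 and 1.40%. Libraries 4 and 5 thus held the most leukocyte RNA of the 5. The share of this RNA in the results on the sorted side was not tested, and none of the 3 lists passed towards the sorted cells.

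**Figure D3:**
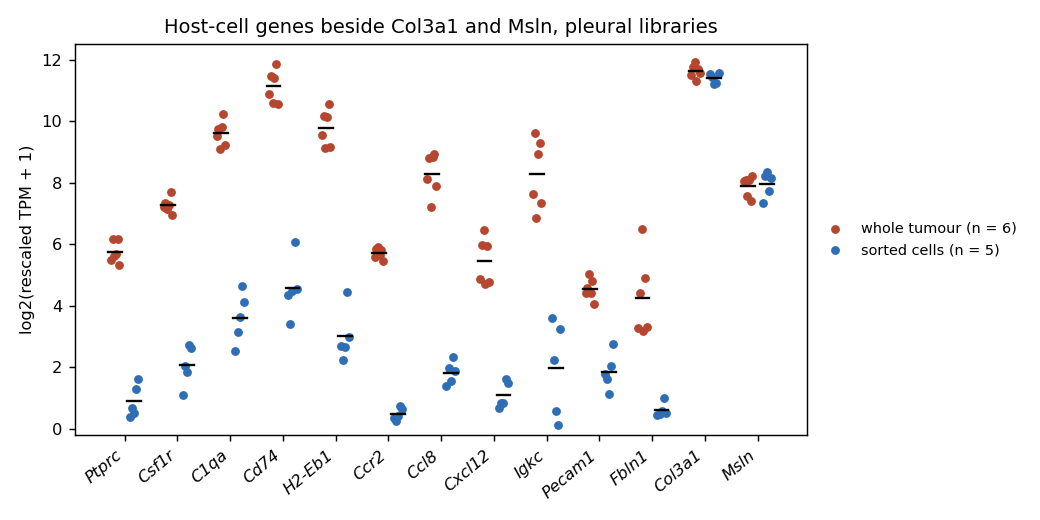
Level of 11 host-cell genes beside Col3a1 and Msln on the log2(rescaled TPM + 1) scale, each point a library, red for whole tumours (n = 6), blue for sorted cells (n = 5), black bars for means. The host-cell genes do not overlap between the kinds of library; Msln does.

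Chemokine ligands split between the 2 kinds of library. Of 23 compared, 15 were higher in whole tumours and 2, Cxcl1 and Cxcl2, in sorted cells, with a median of 2.65. Ccl8, a monocyte attractant made by macrophages, measured 148, 360.1 and 485 against 1.63, 2.93, 1.95, 4.04 and 2.67 TPM (6.47, SE 0.32). The monocyte attractants Ccl2 (30.8, 41.6 and 55.1 against 1.60, 0.868, 2.18, 5.90 and 2.09 TPM, 3.73, SE 0.33) and Ccl7 (32.3, 42.0 and 47.6 against 0.847, 0.885, 1.42, 3.49 and 1.52 TPM, 4.08, SE 0.24) were close to absent from the sorted cells. Cxcl12, the ligand of Cxcr4 and a product of stromal cells, measured 25.3, 44.8 and 88.1 against 0.623, 0.804, 0.812, 2.07 and 1.80 TPM (4.36, SE 0.36). The T cell attractant Ccl5 differed by 3.90 (SE 0.27), Cxcl9 by 3.20 and Cxcl16 by 5.09. Cxcl10, like Cxcl9 an interferon-induced ligand of Cxcr3, was not different (0.36), with 53.4 to 174 TPM in whole tumours and 43.4 to 247 TPM in sorted cells. Cx3cl1, the ligand of Cx3cr1, was also at tumour level in sorted cells (0.31), whereas Cx3cr1 itself differed by 4.65 (SE 0.18). Of 6 chemokine receptors 5 were higher in whole tumours, and the scavenging receptor Ackr3 (0.07) was not. Cxcl13, a B cell attractant, is listed only for whole tumours, at 48.6 to 218 TPM.

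Growth factor receptors of myeloid cells followed the macrophage genes. Of 29 receptors compared, 4 were higher in whole tumours, against 3.89% of all genes. They were Csf1r, the 2 chains of the receptor for granulocyte-macrophage colony-stimulating factor, Csf2ra (4.65, SE 0.18) and Csf2rb (3.94, SE 0.26), and Fgfr1 (2.28). The ligands higher in whole tumours were Pdgfb (3.30, SE 0.23), which recruits pericytes, and Igf1 (3.06, SE 0.37). Pdgfb measured 14.5, 16 and 21.3 against 0.314, 0.617, 0.439, 1.97 and 1.01 TPM, and no sorted library reached the whole tumour range. Ctsc, a lysosomal protease that activates granule enzymes of leukocytes, measured 271, 412 and 570.1 against 2.67, 2.79, 4.09, 15.2 and 5.44 TPM (6.10, SE 0.42). S100a8, a neutrophil calcium-binding protein, measured 7.58, 21.7 and 69.4 against 1.78, 2.12, 0.424, 0.564 and 7.15 TPM (3.07, SE 0.60), a close approach of the groups, and its partner S100a9 (3.23) overlapped. The adipocyte genes Fabp4 (3.05, SE 0.36) and Lipe (2.19, SE 0.10) were both higher in whole tumours.

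Complement genes were mostly on the host side, with 13 of 15 higher in whole tumours and a median of 4.20. Besides the C1q chains they included C3 (4.23), C4b (4.09), factor B (Cfb, 4.20), properdin (Cfp, 4.81) and the receptors C3ar1 (4.76) and Itgam (4.66). C2 (0.62) and C1s1 (1.58) did not pass, and sorted cells held 14.7 to 23.8 TPM of C2 and 34.8 to 82.4 TPM of C1s1.

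T, natural killer, mast and B cell genes could seldom be compared, because the sorted table lists only genes with a mean above 1 TPM over its 15 libraries. Of 19 T cell genes 17, of 12 natural killer genes 12, of 10 mast cell and eosinophil genes 10, and of 16 B and plasma cell genes 12 are listed only for whole tumours. There Cd3e, a subunit of the T cell receptor complex, measured 9.03 to 19.1 TPM, Cd8a 6.25 to 16.8 TPM, the cytotoxic granule gene Nkg7 18 to 44 TPM, and the mast cell tryptase Tpsb2 13 to 25.1 TPM. The antibody light chain Igkc is listed in both and measured 116, 341 and 789 against 11.2, 3.77, 0.487, 0.0972 and 8.58 TPM (6.31, SE 0.84). Its whole tumour values were widely spread, and no sorted library came near the lowest. Thy1, a surface protein of T cells and of some stromal cells, differed by 4.27 (SE 0.22). Lck, a T cell kinase, measured 16, 20.9 and 27.6 against 8.57, 5.84, 4.83, 6.80 and 6.78 TPM (1.59, SE 0.17) and did not pass.

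Immune checkpoint genes were mixed. Of 17 compared, 5 were higher in whole tumours, against 3.89% of all genes. They were Vsir (VISTA, 4.56, SE 0.22), Entpd1 (CD39, 3.47, SE 0.26), Sirpa (2.71, SE 0.09), Lag3 (2.68) and Tnfrsf18 (2.10). Cd274, which encodes PD-L1, measured 9.92, 20.2 and 28.7 TPM in whole tumours and 15.1, 1.83, 3.76, 6.02 and 2.35 TPM in sorted libraries 1 to 5 (1.86, SE 0.50). Sorted library 1 lay within the whole tumour range and the other 4 below it. Its receptor gene Pdcd1 is listed only for whole tumours, at 5.45 to 13.9 TPM. Pvr (CD155), a ligand of Tigit, leaned to the sorted cells at -1.23 without overlap, and Cd47, the ligand of Sirpa, lay at 0.36. Tigit (-0.30) and Tnfrsf9 (-0.40), best known from lymphocytes, were read at 18.2 to 30.7 and 26.3 to 39.3 TPM in the sorted cells, as high as in whole tumours.

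Vessel genes were higher in whole tumours as well. Of 20 endothelial genes 9 are listed in both tables, and 6 of these passed, with a median of 2.69. Pecam1 (CD31) measured 15.7, 21.8 and 31.9 against 2.43, 2.06, 1.21, 3.14 and 5.75 TPM (2.69, SE 0.30), Cdh5 (VE-cadherin) 14.1, 16.6 and 30.5 against 1.21, 1.70, 0.673, 2.74 and 4.77 TPM (2.76, SE 0.35), and endoglin (Eng) differed by 3.33 (SE 0.26). The median endothelial gene in sorted libraries 1 to 5 stood at 10.5, 8.92, 4.87, 14.6 and 24.9% of its whole tumour mean. These shares cover the 9 genes listed for sorted cells, and the other 11 have no value there, so they are not set against those of leukocyte genes. Library 5 was the highest for both Pecam1 and Cdh5. Endothelial cells lack CD45, and the fluorescence gate is then the step that separates them. Kdr, the main VEGF receptor, is listed only for whole tumours (4.86 to 9.86 TPM), while Vegfa, its ligand, was at 43.3, 55.3 and 86.8 against 91.1, 85.6, 99.3, 123 and 104 TPM (-0.74, SE 0.19), nearly without overlap and higher in the sorted cells. Of 4 pericyte and smooth muscle genes 3 passed, Mcam (2.69), Acta2 (2.55) and Tagln (2.47), and Pdgfrb (1.66) did not.

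Fibroblast genes divided. Of 13 compared, 5 were higher in whole tumours: Fbln1 (3.65, SE 0.54), Pi16 (3.38, SE 0.65), Col14a1 (3.10, SE 0.39), Postn (2.59) and Dpt (2.22). Fbln1, a matrix glycoprotein, measured 8.06, 14.7 and 88.8 against 0.358, 0.404, 0.488, 1.00 and 0.436 TPM, and Pi16, a marker of adventitial fibroblasts, 7.69, 12.9 and 136 against 0.500, 0.981, 0.390, 1.31 and 1.58 TPM. The highest whole tumour value of all 5 was that of pleural tumour 3, several times the median. Of the fibrillar collagens, Col3a1 overlapped between the kinds of library, while Col1a1 was lower in the sorted cells without overlap but did not pass. Col3a1 measured 2517, 3163 and 3873 against 2970.3, 2750.2, 2361, 2409 and 2999 TPM (0.23, SE 0.11) and Col1a1 293, 450.3 and 899 against 259, 223, 212, 209 and 212 TPM (1.07, SE 0.27). The proteoglycans Dcn (87.6, 122 and 274 against 179, 167, 111, 78.9 and 169 TPM, -0.02, SE 0.33) and Lum (0.05) overlapped fully. These mesenchymal matrix genes were thus abundant in the mCherry-positive cells as well as in the tumour mass.

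Other matrix genes followed the same division. Of 26, 4 were higher in whole tumours, against 3.89% of all genes. They were Col15a1 (3.20, SE 0.37), the crosslinking enzymes Lox (3.07, SE 0.49) and Loxl2 (2.43, SE 0.42), and the laminin chain Lama4 (2.30). Fibronectin (Fn1, -0.20), Col4a1 (0.26) and Sparc (0.73) were among the 22 that did not pass, and Thbs2 (-1.15) leaned to the sorted cells. With quantile normalization 2 of the 26 passed. Among proteases Mmp9 (297, 400.5 and 635 against 21.6, 32.9, 15.5, 24.6 and 48.9 TPM, 3.88, SE 0.31), Mmp2 (3.65, SE 0.47) and Mmp3 (3.32, SE 0.57) and the inhibitor Timp3 (2.97) were higher in whole tumours, while Mmp14 (0.65), the membrane-bound activator of Mmp2, and Timp1 (-0.17) were at like levels.

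Only 6 of 17 mesothelial genes could be compared, since the other 11 are listed for whole tumours alone. None of the 6 passed, and the median was 0.02, which covers only genes that are also read in sorted cells. Msln (mesothelin) measured 168, 267 and 295 TPM in whole tumours and 163, 295, 323, 210.3 and 284 TPM in sorted cells (-0.06, SE 0.23), and Gata4, a transcription factor of mesothelium, differed by -0.01. The keratins Krt8 (0.869, 3.46 and 15.7 against 1.91, 17.2, 2.61, 11.7 and 22.6 TPM) and Krt18 (0.484, 1.08 and 2.60 against 0.343, 1.29, 0.524, 1.83 and 1.99 TPM), defining markers of mesothelial cells in culture, were low in both. Of the 11, Aldh1a2, an enzyme of retinoic acid synthesis, had the highest levels at 8.01 to 32.0 TPM, and Wt1 measured 2.05 to 5.61 TPM. Of 11 mesenchymal identity genes 9 could be compared, with Vim at -0.19, Zeb1 at 0.36 and Twist1 at 0.06, and 0 of 9 passed. The tumour suppressors Nf2 (0.15), Bap1 (0.46) and Trp53 (0.26) were read in both. Fgfr2 was the highest by mean of the 29 growth factor and cytokine receptors compared, at 286 to 448 TPM in whole tumours and 462 to 570 TPM in sorted cells.

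Mitosis genes were all somewhat lower in the sorted cells. All 19 differed in that direction without overlap, none by 2, and the median was 0.98, or 0.62 and 0.59 with median-of-ratios scaling and quantile normalization. Of all 12141 genes, 9441 leaned to the whole tumours and 6176 overlapped between the kinds of library, so both traits are common among all genes. Mki67 measured 93.9, 99.1 and 110.4 against 61.5, 57.2, 66.0, 60.9 and 59.2 TPM (0.71, SE 0.05), the spindle kinase Plk1 82.7, 88.9 and 101 against 31.4, 27.5, 31.2, 24.8 and 23.8 TPM (1.69, SE 0.09), and the centromere protein Cenpf 22.0, 30.0 and 36.6 against 10.9, 8.91, 8.06, 6.58 and 7.47 TPM (1.73, SE 0.15). DNA replication genes lay closer, with a median of 0.27 that turned to -0.09 under median-of-ratios scaling. Glycolysis genes had a median of 0.01, with 1 of 16 enriched in whole tumours, against 3.89% of all genes. That gene, the lactate exporter Slc16a3, measured 12.9, 21.8 and 32.3 against 0.586, 0.869, 0.952, 1.32 and 1.40 TPM (3.46, SE 0.24). None of 14 hypoxia response genes passed, and the values of all 14 overlapped between the kinds of library. Ndrg1 (-1.47, SE 0.38), Car9 (-0.87, SE 0.40) and Vegfa leaned to the sorted cells within that overlap. Neat1, a nuclear long non-coding RNA, measured 65.0, 143 and 178 against 15.9, 12.2, 11.8, 14.5 and 14.6 TPM (3.14, SE 0.22), whereas the like nuclear RNA Malat1 (0.85, SE 0.34) overlapped.

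Interferon-induced genes varied more among sorted libraries than most lists. Of 21 compared, 4 were higher in whole tumours, against 3.89% of all genes. They were Ifit3 (2.57, SE 0.48), Stat2 (2.31, SE 0.38), Ifit1 (2.24) and Mx1 (2.13). The count was 0 with median-of-ratios scaling and with quantile normalization, and 3 to 8 on leaving out 1 pleural library. Sorted library 1 held 2395 TPM summed over the list and library 4 held 1348 TPM, against 559 to 710 TPM in the other 3 and 1332 to 3175 TPM in whole tumours. Iigp1, a GTPase induced by interferon gamma, reached 174 TPM at most in sorted cells, and its whole tumour range was 91.1 to 274 TPM. The class I presentation genes H2-K1 (0.80), B2m (0.80) and H2-D1 (0.40) did not pass, and their transactivator Nlrc5 did (2.28, SE 0.32), but not under either of those scalings.

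Single libraries carried RNA of tissues next to the pleura. Heart muscle genes are listed only for whole tumours, and the 8 listed summed to 5254 TPM in pleural tumour 3, 18.2 TPM in tumour 5 and 3.41 to 4.36 TPM in the other 4. In tumour 3 they were led by 2 genes: Nppa (atrial natriuretic peptide) measured 3376 TPM there and had a median of 0.127 TPM, and Tnnt2 (cardiac troponin T) measured 693 TPM with a median of 0.237 TPM. Myl2, a ventricular myosin light chain also made in slow skeletal muscle, was 12.2 TPM in tumour 5 and 0.572 TPM in tumour 3. Skeletal muscle Acta1 was 248 TPM in pleural tumour 5 and 16.9 TPM in tumour 3. Without these 2 tumours 456 genes were higher in whole tumours, 441 of them shared with the 472, and 68 were higher in sorted cells. Sorted library 5 held the lung transcripts Scgb1a1 (39.8 TPM) and Sftpc (32.7 TPM), which were at most 0.307 and 0.193 TPM in the other sorted libraries and at most 0.142 TPM and 0 in whole tumours. The same library had 168 TPM of haemoglobin Hba-a1 against 18 to 50.4 TPM in the other 4, and the most endothelial RNA. Without it 482 and 70 genes were enriched.

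**Figure D4:**
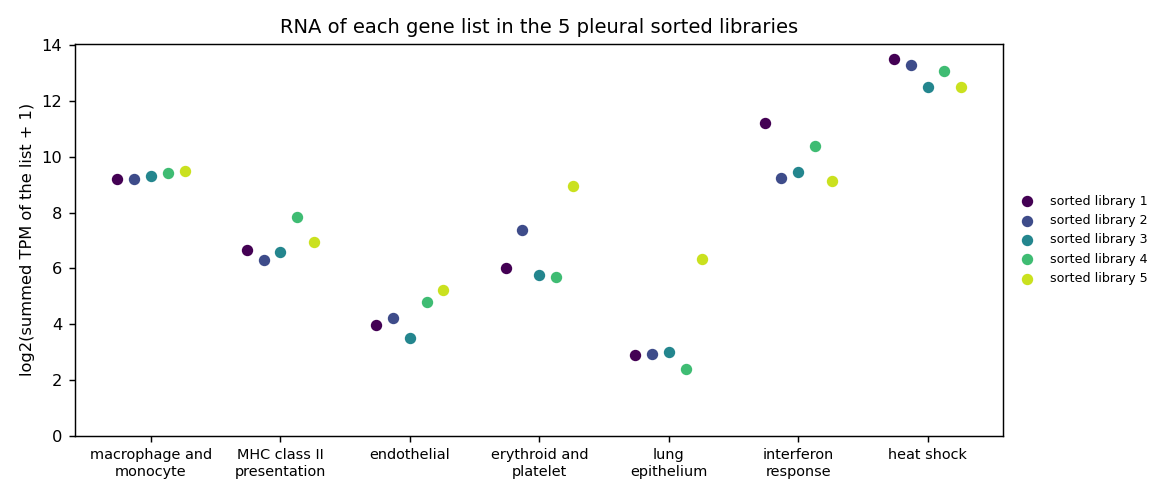
Summed level of 7 gene lists, as log2(summed TPM + 1), in each of the 5 pleural sorted libraries, coloured by library. Library 5 stands apart for lung epithelium (80.2 TPM) and erythroid genes (499 TPM), and library 1 has the highest interferon response sum (2395 TPM). The macrophage and monocyte sum is mostly Plac8, which was not lower in sorted cells than in whole tumours.

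Whether the tumour-to-cell difference depended on the site was tested with limma in 1 fit of all 31 libraries, in which additive effects of kit and table cancel. Against the peritoneal site 143 genes of 12128 (1.18%) had a higher and 163 (1.34%) a lower tumour-minus-cell difference in the pleura at a Benjamini-Hochberg adjusted p below 0.05. Leaving out 1 of the 31 libraries gave 152 calls in all (without pleural sorted library 4) to 530 (without peritoneal sorted library 3). With the mouse as a replicate block, since the titles name the same mice for both kinds of sample, 2 and 5 did. The number in the library name differs from the mouse in the title for 3 of the 5 peritoneal whole tumours, and with the library numbers as the block, a fit chosen after seeing the data, 6 and 23 did. In both blocked fits mt-Nd3 was the 1 of the 12 genes named here that kept its call. In all 143 and in 157 of the 163 the sorted cells shifted more between the sites than the whole tumours did, and the median tumour shifts were 0.01 and 0.03.

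On the lower side the largest called differences included those of Sgk1, Cxcl2, Tnfaip3, Nr4a3 and Arc, none of which keeps its call under the replicate block. Sgk1, a serum- and glucocorticoid-induced kinase, measured 62.7, 56.5, 125, 201 and 71.8 TPM in pleural sorted cells and 7.93, 9.70, 23.2, 10.1 and 7.62 TPM in peritoneal sorted cells. In whole tumours it was 14.7 to 27.7 and 11.4 to 20.3 TPM, so the site difference lay in the sorted cells. Its tumour-minus-cell difference was -2.10 in the pleura and 0.43 in the peritoneum, which differ by -2.53 (SE 0.50, adjusted p = 0.00763). Cxcl2 measured 98.9 to 239 TPM in pleural and 14.4 to 79.4 TPM in peritoneal sorted cells, while both groups of whole tumours held at most 1.58 TPM (-2.47, SE 0.52, adjusted p = 0.0103). Tnfaip3 differed by -2.33 (SE 0.57, adjusted p = 0.0264), Nr4a3 by -2.30 (SE 0.51, adjusted p = 0.0144) and Arc by -2.25 (SE 0.45, adjusted p = 0.00878). Sorted peritoneal library 3 was the highest of its group for Sgk1, Cxcl2, Tnfaip3 and Nr4a3. Subcutaneous sorted cells held 26.1 to 160 TPM of Sgk1, 33.3 to 149 TPM of Cxcl2 and 27.1 to 180 TPM of Tnfaip3. They held 4.68 to 28.2 TPM of Nr4a3 and 18.2 to 52.8 TPM of Arc. All these ranges overlapped the pleural ones, and none of these genes was called against the subcutaneous site. The high sorted levels are thus not particular to the pleura. Of the 22 immediate early genes, 3 were called lower, none under the block, and the list median was -0.63 against -0.01 for all genes. Against the subcutaneous site the list median was -0.09 and 0 of the 22 were called.

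Mitochondrial messages differed from the peritoneal site as well. Of 15 genes of the mitochondrial genome 10 were called lower, against 1.34% of all genes, and 2 under the replicate block. The respiratory chain subunit mt-Nd3 measured 1190.2, 766, 990.1, 809 and 1210.2 TPM in pleural sorted cells and 186, 337, 86.1, 51.8 and 85.9 TPM in peritoneal sorted cells, without overlap. Whole tumours held 1102 to 1905 and 908 to 1940.2 TPM, and the differences of the sites differ by -2.91 (SE 0.42, adjusted p = 0.000442). The sum of the 15 genes was 29755 to 45956 TPM in peritoneal and 52890.0 to 65015 TPM in pleural sorted libraries. The whole list thus moves with these calls, and its part in them was not tested. Subcutaneous sorted libraries lay with the pleural ones, at 57110 to 67675 TPM for the sum and 789 to 1337 TPM for mt-Nd3. Against the subcutaneous site 0 of the 15 genes were called, with a median of 0.05.

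On the higher side, 7 of 19 mitosis genes were called, against 1.18% of all genes, and 0 under the block. Against the subcutaneous site 0 of the 19 were called. Of 18 DNA replication genes 0 were called by limma, with a median of 0.06. Cenpf measured 6.58 to 10.9 TPM in pleural and 12.4 to 20.5 TPM in peritoneal sorted cells, with 22.0 to 36.6 and 29.0 to 35.6 TPM in whole tumours (0.87, SE 0.19, adjusted p = 0.0144). Neat1 measured 11.8 to 15.9 against 16.2 to 59.4 TPM in sorted cells (1.26, SE 0.34, adjusted p = 0.0385). Neat1 and the growth factor progranulin (Grn) were the 2 of the 143 that are also enriched in pleural whole tumours, against 3.89% of all genes. Grn had a pleural difference of 2.33 and a peritoneal one of 1.46 (0.87, SE 0.24, adjusted p = 0.0487). Pik3r4, a regulator of autophagy, differed by 0.90 (SE 0.15, adjusted p = 0.00172), Commd5 by 0.84 (SE 0.17, adjusted p = 0.00801), and Cth, an enzyme of cysteine synthesis, by 1.03 (SE 0.23, adjusted p = 0.0144). None of the MHC class II, macrophage, complement or pan-leukocyte genes was called against the peritoneal site.

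**Figure D5:**
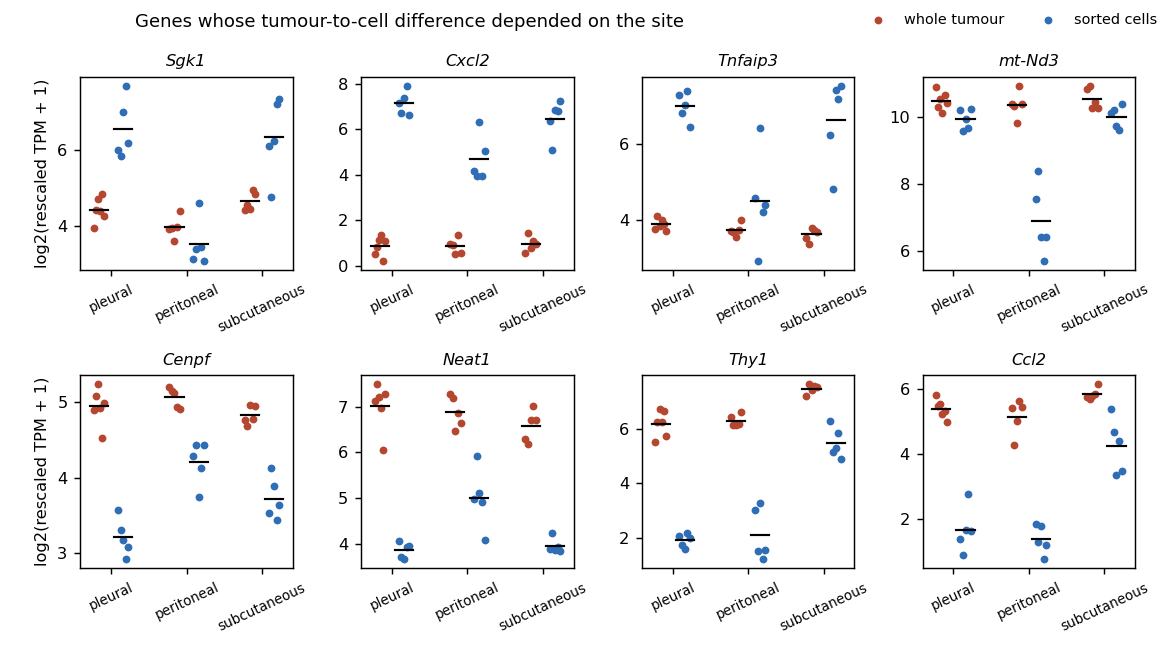
Level of 8 genes named by the site tests on the log2(rescaled TPM + 1) scale, at 3 sites, each point a library, red for whole tumours, blue for sorted cells (n = 5, 6 for pleural whole tumours), black bars for means. For Sgk1 and mt-Nd3 the peritoneal sorted cells lie apart from the pleural ones, and for Thy1 and Ccl2 the subcutaneous sorted cells do.

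Against the subcutaneous site 13 genes (0.107%) had a higher tumour-minus-cell difference in the pleura by the same limma test and 0 (0%) a lower one. At an unadjusted p below 0.05, which a share of 0.05 of genes passes by chance, 1609 of 12128 passed and 317 of these were lower. The split of the adjusted calls was 17 and 5 with median-of-ratios scaling and 7 and 8 with quantile normalization, and 0 genes passed with the replicate block. Leaving out 1 library gave 1 call in 10 cases and up to 85 without pleural sorted library 1, so this count rests on single libraries. Of the 13, 10 were enriched in pleural whole tumours, against 3.89% of all genes. Both calls use the same pleural libraries, so this overlap is in part built in and is no separate support. In 12 of the 13 the larger shift was in the sorted cells. Thy1 measured 3.17, 2.39, 1.99, 3.54 and 2.98 TPM in pleural sorted cells and 76.6, 34.5, 37.7, 56.8 and 28.4 TPM in subcutaneous ones. Whole tumours held 45.0 to 104 and 143 to 195 TPM of it, and the tumour-minus-cell differences of 4.27 and 1.97 differ by 2.30 (SE 0.42, adjusted p = 0.0444). Ccl2 measured 9.29 to 40.6 TPM in subcutaneous sorted cells (2.14, SE 0.45, adjusted p = 0.0489) and Ccl7 6.13 to 32.6 TPM (2.10, SE 0.43, adjusted p = 0.0489). The leukocyte membrane protein Cd53 measured 9.99 to 39.3 TPM there (2.15, SE 0.35, adjusted p = 0.0114), and the highest value of all 4 was that of subcutaneous sorted library 1. The matrix genes Spon1 and Fndc1 differed by 1.97 (SE 0.41, adjusted p = 0.0489) and 2.10 (SE 0.40, adjusted p = 0.0444). They measured at most 1.26 and 0.544 TPM in pleural sorted cells, against 9.35 to 26.4 and 1.36 to 6.42 TPM in subcutaneous ones. Only genes with a mean above 1 TPM over the 15 sorted libraries are listed for sorted cells. Spon1 and Fndc1 pass that limit only through the subcutaneous libraries. Such a limit favours calls in this direction, so the calls of these 2 genes are no support. Host-cell lists differed in the sign of their medians in this comparison. MHC class II lay at 1.38 and macrophage genes at 1.13 against 0.10 for all genes, with 0 of 9 and 0 of 20 called. Neutrophil genes lay at -0.52, erythroid and platelet genes at -1.61 and skeletal muscle genes at -2.29, with 0 of 3, 0 of 6 and 0 of 2 called. Pan-leukocyte genes summed to 132 to 570.0 TPM in subcutaneous and 127 to 174 TPM in pleural sorted libraries, which overlap. Sums of macrophage, MHC class II and fibroblast genes overlapped as well. Endothelial sums did not, at 38.2 to 58.04 against 10.3 to 36.5 TPM. Nor did pericyte and smooth muscle sums, at 25.04 to 39.1 against 8.56 to 17.5 TPM. Erythroid and platelet sums were lower in the subcutaneous libraries, at 10.8 to 25.7 against 50.9 to 499 TPM. Host-cell RNA of the sorted libraries thus moves with the calls and medians above, and its part in them was not tested. In a fit chosen after seeing the data, without subcutaneous sorted libraries 1 and 2, 2 genes were called.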

How the data were processed

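The authors deposited TPM values per gene in separate tables for whole tumours and for sorted cells, quantified with kallisto on GRCm39 per the submitters' processing notes; no kallisto version or annotation release is stated there. Reads were single-end and 50 bases long, per the labels' protocols. There are 54456 genes in the whole tumour table and 12461 entries for sorted cells, each of the latter with a mean above 1 TPM over 15 libraries. Names were used as listed, and 12141 matched. They held 96.0 to 98.1% of the TPM of the 11 pleural libraries. At least 143 of the 320 unmatched names of the sorted table were older symbols. TPM keeps no read number, so depth is unknown.

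Each library was rescaled to a sum of 1000000 TPM over the shared genes in Python 3.11.15 with pandas 2.3.3, and analysed as log2(TPM + 1), which understates changes of low genes. The direct comparison of tumours with sorted cells carries no test; SE is that of the difference of 2 means, from the spread within groups. Site dependence was tested with limma 3.58.1 in R 4.3.3 (empirical Bayes with an intensity trend, 6 group means, 12128 genes that reach 1 TPM in 5 or more libraries, Benjamini-Hochberg adjustment), and calls are adjusted p below 0.05. Scripts were tested on simulated data.

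The 40 gene lists, the members and the rules were chosen with earlier results of these data known. Genes named are the 12 largest differences in each direction at a mean of at least 10 TPM without predicted names, the 3 largest per list, a fixed set, the 6 largest called per direction in each site test at a mean of at least 10 TPM, and the 8 highest list genes of the whole tumour table alone. Members named beyond these were chosen after their values were seen. A few members are not reported here. Other alternatives are given at the end.

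The sample titles name the same mice for both kinds of pleural sample, which is the ground for the paired fits. Same-numbered pleural libraries deviated together with correlations of 0.28, -0.07, -0.05, -0.01 and -0.05, so the data show no shared deviation beyond mouse 1. Library numbers and titles disagree for 3 peritoneal whole tumours. The mice of a group are separate animals per the labels.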

Additional observations from a re-analysis of the deposited data

Results flagged for a closer look

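Among 164 groups of pleural libraries checked for a library far from the others, 5 held one, where chance gives about 1 in 20. That rate concerns the number of such groups and says nothing of the size of a single value. Genes listed only for whole tumours, the heart muscle genes among them, were not part of this check. In sorted library 5 the summed lung epithelium genes reached 80.2 TPM and Sftpc, the gene of surfactant protein C, 32.7 TPM. In pleural tumour 5 the skeletal muscle genes listed in both tables summed to 182 TPM. In sorted library 1 the glycolysis genes summed to 11112.5 TPM, the lowest of the 5. In pleural tumour 3 Ptgs2 was 6.59 TPM, the lowest of the 6.

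The tumour-minus-cell difference of 18 named genes passed the limma test of the interaction of kind of sample and site without a replicate block. With the block, by title or by library number, 1 of the 12 peritoneal genes (mt-Nd3) and 0 of the 6 subcutaneous genes passed. Values are on the log2(TPM + 1) scale. Against the subcutaneous site it was higher in the pleura for Ccl2 (2.14), Ccl7 (2.10), Cd53 (2.15), Fndc1 (2.10), Spon1 (1.97) and Thy1 (2.30). Against the peritoneal site it was higher for Cenpf (0.87), Commd5 (0.84), Cth (1.03), Grn (0.87), Neat1 (1.26) and Pik3r4 (0.90). It was lower there for Arc (-2.25), Cxcl2 (-2.47), Nr4a3 (-2.30), Sgk1 (-2.53), Tnfaip3 (-2.33) and the mitochondrial gene mt-Nd3 (-2.91). Fndc1 and Spon1 are listed for sorted cells only through the subcutaneous libraries.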

How the results depend on the processing

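A difference of at least 1 in place of 2 gave 1441 genes higher in whole tumours and 173 higher in sorted cells, and a difference of at least 3 gave 279 and 33. The other scalings and filters and older symbols matched through RefSeq synonyms (chosen after seeing the data, 474 and 67) kept both counts within 1.5 times. Leaving out 1 library gave 461 to 518 and 67 to 73. The pairing of mice 1 to 5 (replicate block) gave 514 and 71, also within 1.5 times but by another rule. That rule asked for a mean paired difference of at least 2 with all paired differences of 1 sign, and left out tumour 7. For the pleural against the peritoneal site, 306 limma calls became 512 with median-of-ratios scaling, 528 with quantile normalization, 571 with arrayWeights, 58 at an adjusted p below 0.01, 7 with the replicate block and 29 with the block numbered by library names (chosen after seeing the data), and 152 to 530 on leaving out 1 library. For the subcutaneous site, 13 calls became 29 with a pseudocount of 0.1, 26 with no rescaling, 22 with median-of-ratios scaling, 194 with arrayWeights, 2 with only the 2 sites compared, and 1 to 85 on leaving out 1 library (below 9 in 17 of 31 cases). They became 0 at an adjusted p below 0.01 and 0 with the replicate block, by title or by library name. With the first and the block by title limma gave 1609 and 1577 genes at an unadjusted p below 0.05. In fits chosen after seeing the data, 3 were called without the pleural tumours that hold muscle RNA and 2 without subcutaneous sorted libraries 1 and 2. The cause of these shifts was not tested. Of 2938 recomputed differences of 134 named genes none changed sign where the gene was enriched, and 115 moved by more than the spread between replicates, all with a pseudocount of 0.1, median-of-ratios scaling or quantile normalization. Of 810 recomputed site tests of 18 named genes none changed sign and 189 lost the call. The depth that limits low genes is unknown.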

Other observations

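Lymphocyte receptor and antibody genes listed only for whole tumours were read in all 6 pleural tumours. The T cell receptor constant genes Trbc2 and Trac measured 22.5 to 44.2 TPM and 15.8 to 42.9 TPM, and Klrk1, an activating receptor of natural killer cells, 10.2 to 26.8 TPM. Jchain, which links antibody multimers, measured 11.3 to 63.7 TPM. The antibody heavy chain gene Ighg1 was more uneven, from 0.558 TPM to 79.2 TPM with a median of 4.15 TPM. Further muscle genes beside those above were near 0 in most tumours: the heart genes Myh6 and Myl7 reached 384 and 356 TPM against medians of 0.273 TPM and 0, and the oxygen-binding Mb reached 203 TPM against 0.179 TPM. The oxidoreductase gene Ero1a had a median of 98.9 TPM and a highest value of 177 TPM, and for sorted cells it is listed under its older symbol Ero1l. Trbc2, Trac, Klrk1, Jchain and Ighg1 were chosen after their values were seen.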
